A study of Rattus norvegicus with 24 samples.

Results

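Skeletal muscle takes up fatty acids from circulating lipoproteins in several steps, and 7 genes that act along this route were followed across the 4 groups of the study. They are Lpl, Gpihbp1, Cd36, Fabp3, Slc27a1, Vldlr and Pnpla2, chosen by name for their known roles, with earlier results of these data known. A row with the gene's name was found for 6 of the 7 among the 21067 genes of the deposited table, and Cd36 had no row by that name. RNA came from the quadriceps muscle of Sprague-Dawley rats of both sexes, 6 weeks old at the start, with 6 rats and 1 library per rat in each group. Control rats were fed normally and did no treadmill training. The rats of the treadmill group and of both catgut groups trained for 7 weeks at rising speed and then ran until exhausted, as a model of exercise-induced fatigue. Muscle was taken after this last run, which control rats did not do. Below, training means the 7 weeks with the run, which cannot be told apart, and training alone means both without thread. Before training, collagen thread was embedded in both catgut groups at the acupoints Bai Hui, Yang Wa, Qiang Feng, Qian Shen, Xie Qi and Han Gou, and catgut group 2 received it at Fei Shu as well. Some of these points lie in the hind limb, and rats with thread but without training were not part of the design, so that thread was compared only on top of training.

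Lipoprotein lipase, encoded by Lpl, is made in muscle and fat cells and works on the inner surface of capillaries, where it splits the triglycerides of chylomicrons and very-low-density lipoproteins. GPIHBP1 is the protein of capillary endothelial cells that carries the lipase there and anchors it. The released fatty acids enter muscle fibres with the help of CD36 and of FATP1, the product of Slc27a1, and are bound inside the fibre by the heart-type fatty acid binding protein, the product of Fabp3. The very-low-density lipoprotein receptor, encoded by Vldlr, takes up triglyceride-rich particles, and adipose triglyceride lipase, encoded by Pnpla2, starts the breakdown of triglycerides stored in the cell. Slow oxidative fibres, which express the myosin Myh7, are known for a higher capacity to take up and burn fatty acids than fast fibres.

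Since several of the genes varied together between libraries, promoters are shown of 3 genes that did (Fabp3, Slc27a1 and Pnpla2) and of Vldlr, which did not. RefSeq windows of the rat assembly GRCr8 were found for 5 of the 7 genes (Cd36, Fabp3, Slc27a1, Vldlr and Pnpla2) and cover the 250 bases before the annotated start. Capitals mark the motifs, which were searched on both strands. These were AGGTCA (the hexamer bound by nuclear receptors), its direct repeat with 1 base between (AGGTCANAGGTCA, the form bound by PPAR with RXR, which contains the hexamer), CACGTG (the E-box of clock factors) and GGGCGG (the GC box).
Fabp3 (GRCr8, chr5:147935875-147936124, plus strand): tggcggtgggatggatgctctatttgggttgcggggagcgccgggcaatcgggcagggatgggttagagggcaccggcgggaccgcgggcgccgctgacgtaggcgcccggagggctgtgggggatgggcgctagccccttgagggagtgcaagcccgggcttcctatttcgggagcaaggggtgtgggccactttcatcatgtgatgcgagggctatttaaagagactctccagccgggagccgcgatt
Slc27a1 (GRCr8, chr16:18312717-18312966, plus strand): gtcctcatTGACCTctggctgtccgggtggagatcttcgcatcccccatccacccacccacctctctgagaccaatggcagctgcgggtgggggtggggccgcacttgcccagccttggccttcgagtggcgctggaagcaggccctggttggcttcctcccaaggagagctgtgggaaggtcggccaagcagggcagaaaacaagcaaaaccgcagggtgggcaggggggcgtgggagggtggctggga
Pnpla2 (GRCr8, chr1:205982029-205982278, plus strand): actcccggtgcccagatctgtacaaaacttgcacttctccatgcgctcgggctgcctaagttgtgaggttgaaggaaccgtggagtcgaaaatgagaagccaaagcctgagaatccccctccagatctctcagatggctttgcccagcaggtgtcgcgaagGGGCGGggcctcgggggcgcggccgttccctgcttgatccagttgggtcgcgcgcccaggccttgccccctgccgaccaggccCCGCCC
Vldlr (GRCr8, chr1:234240436-234240685, plus strand): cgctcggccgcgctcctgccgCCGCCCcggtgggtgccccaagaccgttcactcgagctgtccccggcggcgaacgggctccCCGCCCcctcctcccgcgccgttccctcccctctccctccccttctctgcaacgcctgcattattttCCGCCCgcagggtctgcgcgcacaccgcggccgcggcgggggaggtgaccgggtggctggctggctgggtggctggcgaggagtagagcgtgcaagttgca
The Slc27a1 window held 1 hexamer, on the opposite strand, the Pnpla2 window held 2 GC boxes and the Vldlr window 3, while the Fabp3 and Cd36 windows held none of the 4 motifs. Among 33469 rat promoter windows of this length, 14.1% held the hexamer, 0.0508% the direct repeat, 5.59% the E-box and 30.5% the GC box. The GC content was 65.6% for Fabp3, 65.6% for Slc27a1, 63.6% for Pnpla2, 73.6% for Vldlr and 45.6% for Cd36, against a median of 51.2% over all windows.

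Levels are given as FPKM, which the authors scaled for transcript length and library size, so that genes can be compared with each other. The libraries held 45945938 to 78278080 counts. As a check of the tissue, the 8 muscle fibre markers with a row summed to 73572 to 102261 FPKM per library, while Myh4 and Myh2 had no row. The labels name the tissue as quadriceps muscle, although their protocol text also speaks of an adipose type, and the levels of adipocyte markers, cells that make Lpl too, are given with the other cell types. Liver transcripts stood apart in 3 libraries, where albumin (Alb) reached 135 FPKM (control replicate 2), 14.3 FPKM (treadmill replicate 2) and 226 FPKM (treadmill replicate 3), and it was at most 3.14 FPKM in all others. Y-linked transcripts were present in 3 of 6 libraries of each group, except catgut group 2 with 2 of 6, and the labels give no sex. These were replicates 4, 5 and 6 in control, treadmill and catgut group 1, but replicates 1 and 5 in catgut group 2. The authors state equal numbers of males and females in each group, which 2 of 6 does not match. The cause was not tested. Since RNA was taken from whole tissue, fewer cells of a type and less RNA per cell cannot be told apart.

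Fabp3 was by far the most abundant of the 6 genes, with a mean of 679.5 FPKM over the 24 libraries. It was followed by Lpl (68.2 FPKM) and Pnpla2 (55.7 FPKM, with 4 libraries listed at 0), then Gpihbp1 (28.5 FPKM) and Vldlr (19.8 FPKM), with Slc27a1 last (8.17 FPKM). The highest library exceeded the lowest 11.3-fold for Fabp3, 11.2-fold for Slc27a1, 5.20-fold for Lpl and 4.20-fold for Gpihbp1. For Vldlr it did so only 1.64-fold, the least of the 5 genes without a value of 0.

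**Figure D1:**
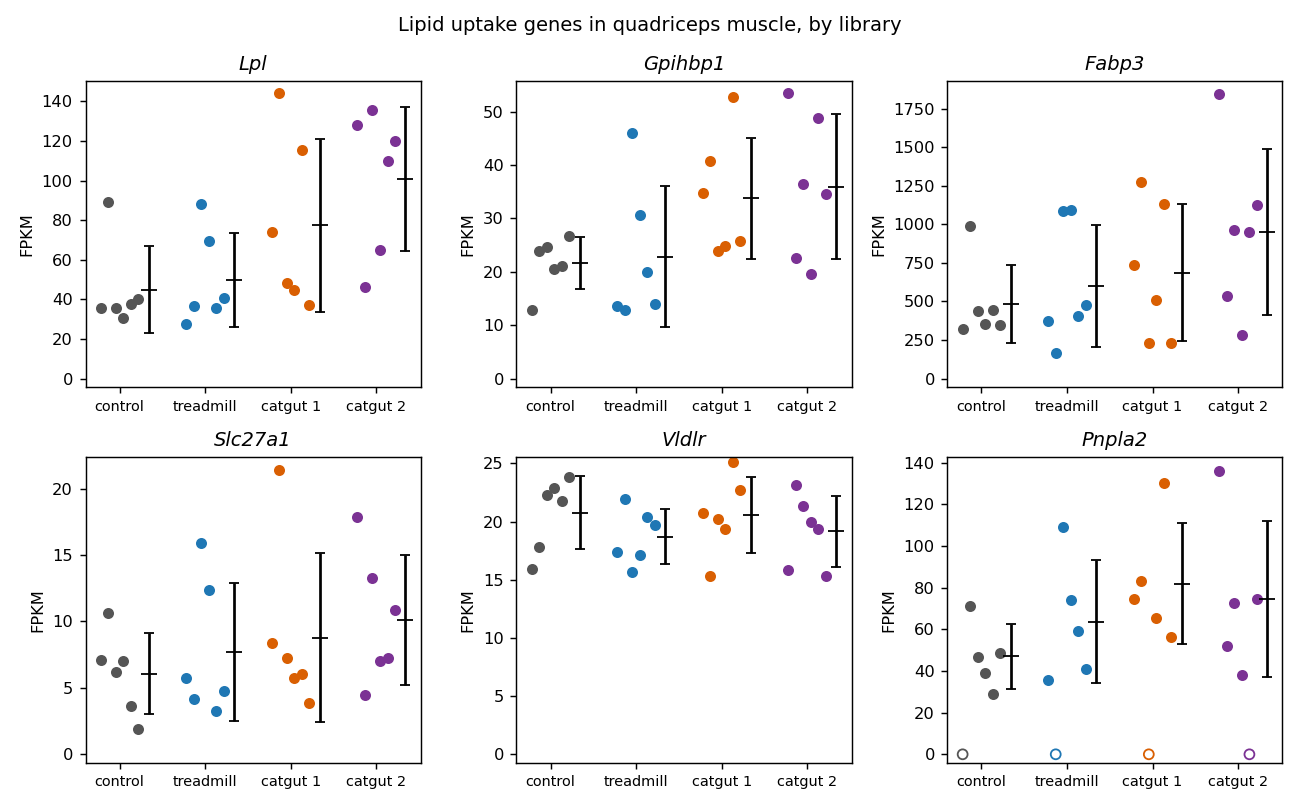
FPKM of the 6 genes in each of the 24 libraries, with 1 point per rat and the mean ± SD of each group (n = 6). Open circles on the Pnpla2 panel are the 4 libraries listed at 0, which its means leave out (n = 5). Lpl reached 128.3, 136, 109.7 and 120.2 FPKM in 4 libraries of catgut group 2, while its highest control library had 89.1 FPKM.

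Lpl (ENSRNOG00000012181, chromosome 16, 22537056 to 22561496, minus strand, in the table's coordinates, whose build is not given in the sources used here) had its lowest mean in control, followed by treadmill, catgut group 1 and catgut group 2. In the control group it ranged from 30.6 to 89.1 FPKM with a median of 36.7. In the treadmill group it ranged from 27.8 to 88.1 FPKM with a median of 38.9. The ranges of these groups nearly coincided, and control replicate 2 lay far above the other control libraries. In catgut group 1 Lpl ranged from 37.0 to 144 FPKM with a median of 61.3, and in catgut group 2 from 46.04 to 136 FPKM with a median of 115. Both catgut groups spread widely, with low libraries inside the control range and high libraries above it. The means were 44.8 ± 21.9 FPKM (control), 49.8 ± 23.6 FPKM (treadmill), 77.4 ± 43.5 FPKM (catgut 1) and 101 ± 36.6 FPKM (catgut 2; SD, n = 6 each).

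Each pair of groups was compared on the deposited counts of its 12 libraries by the quasi-likelihood test of edgeR (two-sided), with p-values adjusted by Benjamini-Hochberg over 14772 genes. Lpl differed most between catgut group 2 and control. Its log2 fold change was 1.17 (SE 0.344), a 2.26-fold higher level, with an unadjusted p of 0.00471 and an adjusted p of 0.136 in edgeR, so that it did not pass the threshold of 0.05. In catgut group 2, 4 of 6 libraries exceeded all control libraries. An exact permutation test of log2(FPKM + 1) gave p = 0.0152, where 0.00216 is the smallest value that 924 arrangements allow. Without control replicate 2, the control library with the most Lpl and the most albumin, the log2 fold change was 1.51 and passed, with an adjusted p of 0.0489 in edgeR. It also passed with DESeq2 on all 12 libraries (adjusted p = 0.0117). Leaving out the control library with the most Lpl raises the difference in any case. Leaving out any other library gave log2 fold changes between 1.04 and 1.33, none of which passed (adjusted p from 0.0682 to 0.263 in edgeR). The Y-linked level as a covariate gave 1.17 (adjusted p = 0.139 in edgeR). Over the 12 fits without 1 library, from 12 to 492 of all 14772 genes were called in this comparison.

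The comparison with the treadmill group addresses what embedding added to training. There the log2 fold change of Lpl in catgut group 2 was 0.99 (SE 0.359), with an unadjusted p of 0.0165, an adjusted p of 0.317 in edgeR and an exact permutation p of 0.026. Of its libraries, 4 of 6 exceeded all treadmill libraries. Without the treadmill libraries rich in albumin the value was 1.14 (adjusted p = 0.259 in edgeR). In catgut group 1 the log2 fold change of Lpl was 0.58 against treadmill (SE 0.379, adjusted p = 0.872 in edgeR) and 0.76 against control (SE 0.370, adjusted p = 0.534). The catgut groups differed from each other by 0.41 (SE 0.370, adjusted p = 1 in edgeR). Training alone gave 0.18 (SE 0.350, adjusted p = 0.906 in edgeR), a value that rested on single libraries, being 0.52 without control replicate 2 and -0.062 without treadmill replicate 3. In the order of the 4 means, then, no 2 neighbouring groups differed past the threshold. These comparisons share groups and are not independent.

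**Figure D2:**
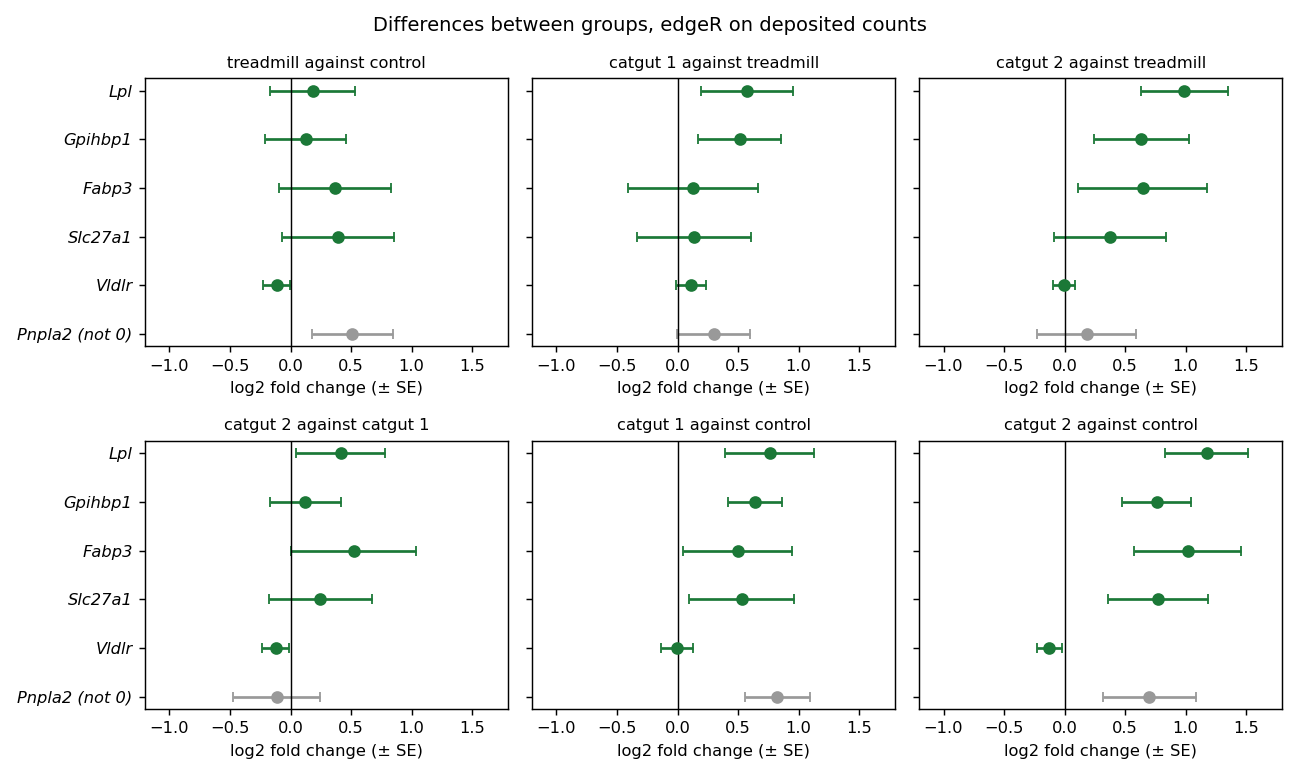
Log2 fold change ± SE of each gene in the 6 comparisons, from edgeR on the counts of 12 libraries each (10 for Pnpla2, in grey, which leaves out the libraries listed at 0). Lpl stood farthest from 0 in catgut group 2 against control (1.17), and Vldlr stayed between -0.12 and 0.11 in all 6 comparisons.

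Gpihbp1 (ENSRNOG00000007475, chromosome 7, 116632506 to 116634293, plus strand), whose protein holds the lipase at the capillary wall, had its highest means in the catgut groups. It ranged from 12.8 to 26.6 FPKM in control (median 22.5) and from 12.8 to 46.03 FPKM in the treadmill group (median 16.9). It ranged from 23.96 to 52.7 FPKM in catgut group 1 (median 30.2) and from 19.6 to 53.6 FPKM in catgut group 2 (median 35.5). Control replicate 1 (12.8 FPKM) lay below the other control libraries (20.5 to 26.6 FPKM). In catgut group 1, 3 libraries exceeded all control libraries, and in catgut group 2, 4 did. The log2 fold change against control was 0.64 in catgut group 1 (SE 0.222, adjusted p = 0.405 in edgeR, exact permutation p = 0.026). The value for catgut group 2 was 0.76 (SE 0.283, adjusted p = 0.205 in edgeR, exact permutation p = 0.0411). Neither passed the adjusted threshold. Against treadmill the log2 fold changes were 0.51 (SE 0.343) and 0.63 (SE 0.391) in catgut groups 1 and 2, with adjusted p-values of 0.881 and 0.619 in edgeR. Treadmill against control gave 0.12 (SE 0.334) and the catgut groups differed by 0.12 (SE 0.293).

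Fabp3 (ENSRNOG00000012879, chromosome 5, 148528725 to 148535565, plus strand), the carrier of fatty acids inside the fibre, spread widely in the 3 trained groups, while in control only replicate 2 lay apart from the other 5 libraries (321 to 444 FPKM). Its lowest, median and highest values were 321, 396 and 991 FPKM in control and 163, 442 and 1093 FPKM in the treadmill group. In catgut group 1 they were 232, 623 and 1272 FPKM, and in catgut group 2 they were 282, 956 and 1845 FPKM. All groups overlapped at their low end. For catgut group 2 against control the log2 fold change was 1.02 (SE 0.440, unadjusted p = 0.0384, adjusted p = 0.27 in edgeR), with an exact permutation p of 0.0996. In the other 5 comparisons the log2 fold change of Fabp3 lay between 0.13 and 0.65, and the smallest adjusted p was 0.745 in edgeR. Fabp3 shares 47 bases with Zcchc17 on the opposite strand, and whether counting used strand is not given in the sources used here.

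Slc27a1 (ENSRNOG00000018170, chromosome 16, 19999112 to 20016190, plus strand), a fatty acid transport protein of muscle and fat, was low and uneven. In control it ranged from 1.92 to 10.6 FPKM with a median of 6.61, and in the treadmill group from 3.23 to 15.9 FPKM with a median of 5.25. In catgut group 1 it ranged from 3.88 to 21.4 FPKM with a median of 6.64, and in catgut group 2 from 4.46 to 17.9 FPKM with a median of 9.03. All groups overlapped, and the highest value, in catgut 1 replicate 2, stood far above the rest of its group. Catgut group 2 differed from control by 0.77 on the log2 scale (SE 0.414, adjusted p = 0.377 in edgeR, exact permutation p = 0.117). The other 5 comparisons gave 0.13 to 0.53 with standard errors of 0.426 to 0.472.

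Vldlr (ENSRNOG00000027491, chromosome 1, 245237736 to 245269205, plus strand), the receptor for triglyceride-rich particles, had nearly level means. They were 20.7 ± 3.14 FPKM (control), 18.7 ± 2.37 FPKM (treadmill), 20.6 ± 3.30 FPKM (catgut 1) and 19.1 ± 3.05 FPKM (catgut 2; SD, n = 6 each). The 24 libraries lay between 15.3 and 25.1 FPKM, and all groups overlapped. Its log2 fold changes ran from -0.12 to 0.11 with standard errors from 0.0925 to 0.130, and the smallest adjusted p was 0.598 in edgeR.

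Pnpla2 (ENSRNOG00000047551, chromosome 1, 213997709 to 214002815, plus strand), the lipase of stored triglycerides, was listed at 0 in 1 library of each group (control replicate 1, treadmill replicate 2, catgut 1 replicate 3 and catgut 2 replicate 5). A 0 in such a table can be a failed estimate, and 16 of the 2444 genes with a mean over 20 FPKM were at 0 in some library. The comparisons of Pnpla2 given here leave these libraries out. In the others, control had 71.3, 46.8, 39.2, 29.2 and 48.8 FPKM, and the treadmill group had 35.6, 109, 74.1, 59.2 and 40.8 FPKM. Catgut group 1 had 74.6, 83.4, 65.6, 130.3 and 56.2 FPKM, and catgut group 2 had 136, 52.1, 72.7, 38.1 and 74.4 FPKM. Of the 5 control libraries, 4 lay below all of catgut group 1, while catgut group 2 overlapped with every group. For catgut group 1 against control the log2 fold change was 0.82 (SE 0.270, unadjusted p = 0.0111, adjusted p = 0.314 in edgeR), with an exact permutation p of 0.0238 over 252 arrangements. Against control the log2 fold change was 0.51 in the treadmill group (SE 0.333, adjusted p = 0.498 in edgeR) and 0.70 in catgut group 2 (SE 0.385, adjusted p = 0.48). The remaining 3 comparisons ranged from -0.11 to 0.30, with adjusted p-values of at least 0.901 in edgeR.

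For Cd36, the table holds 2 related rows whose coordinates overlap on chromosome 4, given here by their own names and chosen after their values were seen. RGD1565355 (14001761 to 14249749, plus strand), which the table describes as similar to the fatty acid translocase, had means of 26.1 ± 12.5 FPKM (control), 32.7 ± 13.4 FPKM (treadmill), 35.5 ± 18.1 FPKM (catgut 1) and 49.1 ± 14.2 FPKM (catgut 2; SD, n = 6 each). LOC103690020 (14212925 to 14241272, plus strand), described as like platelet glycoprotein 4, had means of 4.94 ± 1.91 FPKM (control), 6.48 ± 2.37 FPKM (treadmill), 9.76 ± 2.83 FPKM (catgut 1) and 13.0 ± 7.11 FPKM (catgut 2; SD, n = 6 each). Both rows had their highest mean in catgut group 2. Against control, the log2 fold change there was 0.93 for RGD1565355 (SE 0.312, adjusted p = 0.175 in edgeR) and 1.44 for LOC103690020 (SE 0.364, adjusted p = 0.102 in edgeR). Reads from the shared stretch could fall to either row, so the single values are uncertain.

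Counted together, with Pnpla2 taken over all libraries, 0 of the 6 genes had an adjusted p under 0.05 in edgeR in any of the 6 comparisons. Among all genes tested the share of such calls was 0.0542% for treadmill against control (0.0406% higher, 0.0135% lower) and 0.0474% for catgut 1 against treadmill (0.0338% higher, 0.0135% lower). It was 0.237% for catgut 2 against treadmill (0.108% higher, 0.129% lower) and 0.508% for catgut 2 against control (0.325% higher, 0.183% lower). It was 0.00677% between the catgut groups and 0.0203% for catgut 1 against control, all of them higher and 0.0% lower. Calls were thus rare among all genes, and 0 of 6 is near this background.

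At an unadjusted p under 0.05, Lpl, Gpihbp1 and Fabp3 (3 of 6) were higher in catgut group 2 than in control, where 16.4% of all genes had such a p, 8.04% being higher. Lpl (1 of 6) was higher for catgut 2 against treadmill, beside 10.7% of all genes (5.6% higher), and Gpihbp1 (1 of 6) for catgut 1 against control, beside 9.84% (4.78% higher). With the libraries at 0 left out, Pnpla2 also had such a p for catgut 1 against control (0.0111 in edgeR, 0.506 with all libraries), which makes 2 of 6. The other 3 comparisons had 0 of 6, beside 9.12% (4.03% higher) for training alone, 6.93% (3.44% higher) for catgut 1 against treadmill and 3.26% (1.87% higher) between the catgut groups. DESeq2 called 1 of the 6 (Lpl, catgut 2 against control), where it called 4.63% of all genes. In the other comparisons it called 0 of 6, beside 0.771% (training alone), 0.952% (catgut 1 against treadmill), 2.04% (catgut 2 against treadmill), 0.0543% (between catgut groups) and 1.1% (catgut 1 against control). The median log2 fold change of the 6 genes was 0.77 for catgut 2 against control, beside -0.0050 over all genes, and 0.28 for training alone, beside -0.0020. It was 0.22 for catgut 1 against treadmill, 0.51 for catgut 2 against treadmill, 0.18 between the catgut groups and 0.58 for catgut 1 against control, beside -0.011, 0.0035, 0.0070 and -0.012 over all genes. The 6 genes were chosen with earlier results of these data known. Lpl, Gpihbp1 and Fabp3 also varied together over the libraries (r = 0.79 to 0.84). These counts and medians are therefore no test of the 6 genes against all genes.

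Between libraries, 5 of the 6 genes varied together. Over the 24 libraries the level of Lpl, as log2(FPKM + 1), rose with those of Fabp3 (r = 0.84, rho = 0.78, Pearson's r and Spearman's rho), Gpihbp1 (r = 0.82, rho = 0.78) and Slc27a1 (r = 0.75, rho = 0.70). Over the 20 libraries with a value above 0 it rose with Pnpla2 (r = 0.79, rho = 0.80). In a permutation test with 100000 resamples, adjusted over 57 relations, these 4 had p-values of at most 0.000163 for r and 0.000604 for rho. Without the 2 libraries farthest from the median the values of r lay between 0.73 and 0.83. Within groups, meaning all libraries together after each group's mean was removed, they lay between 0.74 and 0.85. In the single group with the lowest value, r with Lpl was 0.29 for Gpihbp1 and 0.42 for Slc27a1. Gpihbp1 and Slc27a1 were more loosely related (r = 0.56, rho = 0.56), with r = -0.33 in the group with the lowest value. Gpihbp1, the anchor of the lipase on the vessel, and Pnpla2, the lipase of stored fat, were the closest pair (r = 0.89, rho = 0.89, 20 libraries). Vldlr ran against Slc27a1 (r = -0.71, rho = -0.67, adjusted permutation p = 0.000463 and 0.00135), also within groups (r = -0.74). All genes of a library share its depth and its mixture of fibres and cells.

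**Figure D3:**
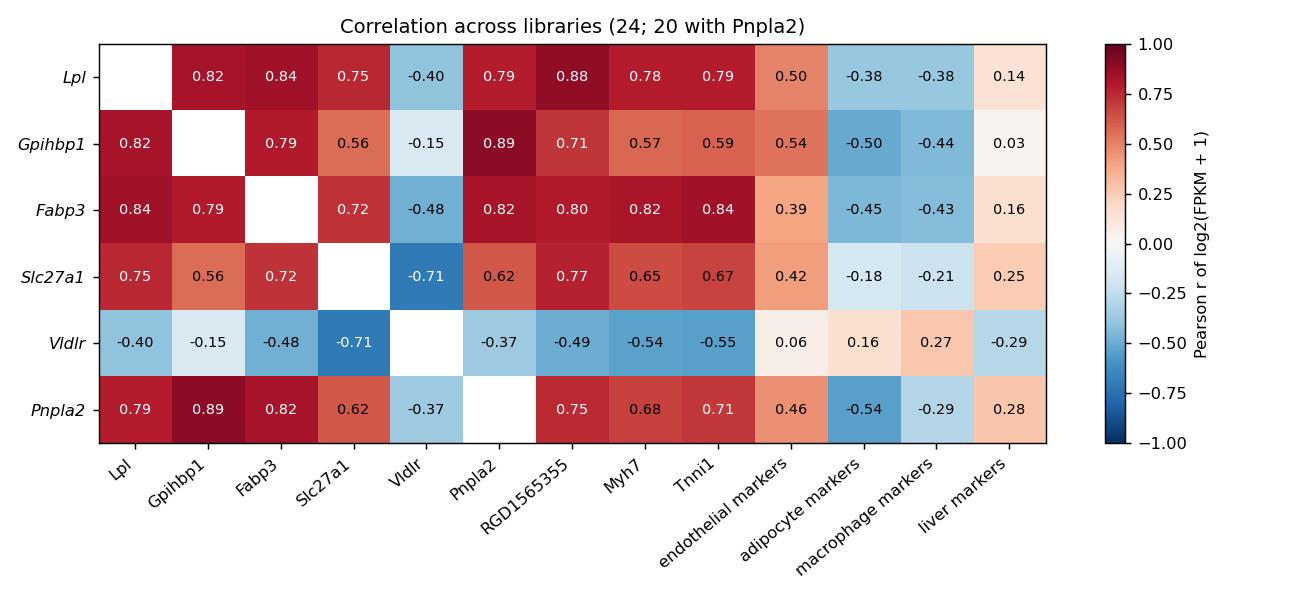
Pearson correlation of log2(FPKM + 1) over libraries between each of the 6 genes and the others, RGD1565355, the slow fibre genes Myh7 and Tnni1, and the mean levels of marker lists. Correlations among Lpl, Gpihbp1, Fabp3, Slc27a1 and Pnpla2 are all positive and those with Vldlr negative, and Lpl reached 0.88 with RGD1565355 and 0.78 with Myh7.

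The libraries also differed in slow fibre transcripts. Myh7, the myosin of slow fibres, ranged from 0.0984 to 144 FPKM in control, from 0.121 to 143 FPKM in the treadmill group, from 0.632 to 308 FPKM in catgut group 1 and from 25.5 to 417 FPKM in catgut group 2. Its means were 36.1 ± 55.7 FPKM (control), 68.7 ± 65.7 FPKM (treadmill), 145 ± 142 FPKM (catgut 1) and 155 ± 142 FPKM (catgut 2; SD, n = 6 each), in the same order as those of Lpl. Between catgut group 2 and control Myh7 differed by 2.12 on the log2 scale (SE 1.21, adjusted p = 0.409 in edgeR). Lpl followed Myh7 over the 24 libraries (r = 0.78, rho = 0.81, adjusted permutation p = 0.000127 and 0.000114) and within groups (r = 0.74). Over all libraries, Fabp3 (r = 0.82, rho = 0.84), Slc27a1 (r = 0.65, rho = 0.68), Gpihbp1 (r = 0.57, rho = 0.60) and, over 20 libraries, Pnpla2 (r = 0.68, rho = 0.78) also rose with Myh7. Within groups r was 0.80, 0.60, 0.48 and 0.61 for these 4, and for Gpihbp1 it was -0.20 in the group with the lowest value. Vldlr went the other way (r = -0.54, rho = -0.57, adjusted permutation p = 0.0143 and 0.00853). Control replicate 2, with the most Lpl and Fabp3 of its group, also had the most Myh7 (144 FPKM).

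**Figure D4:**
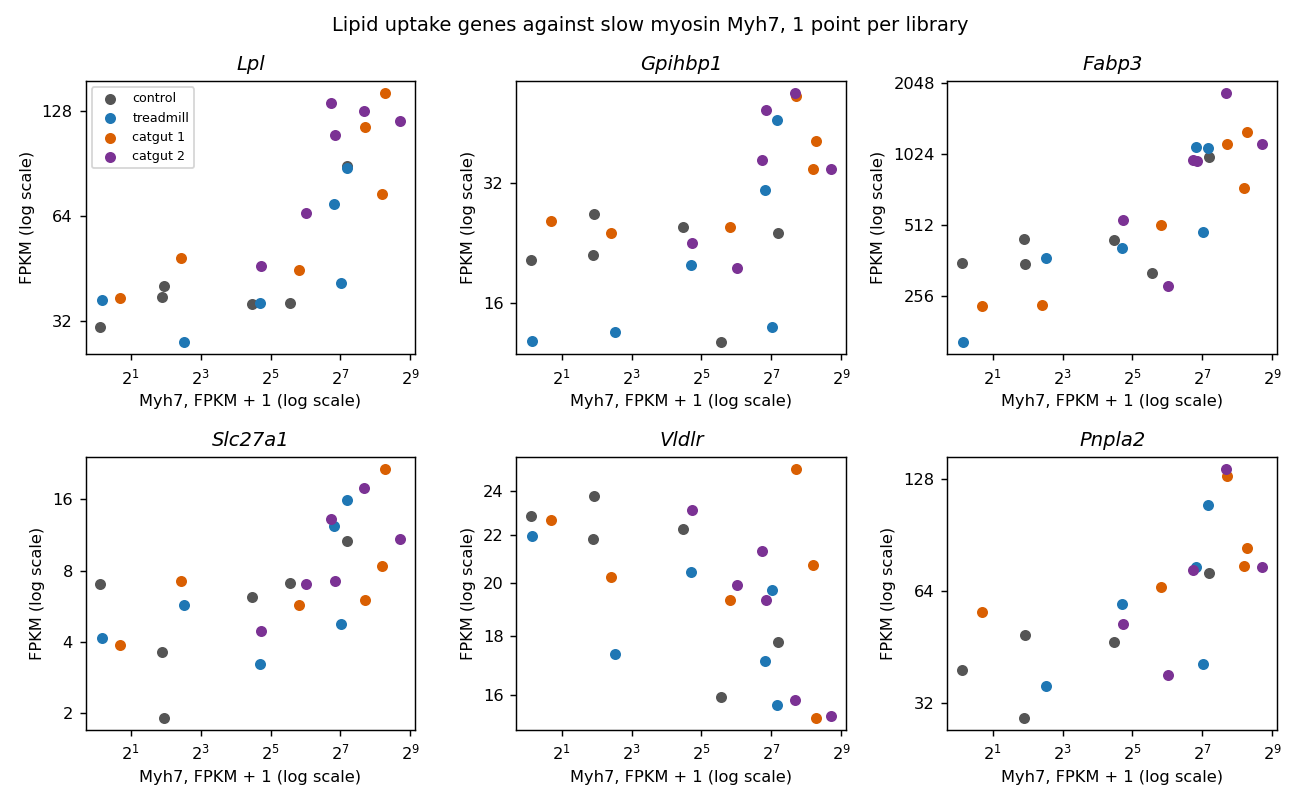
Level of each gene (FPKM) against that of Myh7 (FPKM + 1) in the same library, both axes on a log scale, coloured by group (24 libraries, 20 for Pnpla2). Lpl, Fabp3, Slc27a1, Gpihbp1 and Pnpla2 rise with Myh7 (r = 0.78 for Lpl), and Vldlr falls (r = -0.54).

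With the Myh7 level as a covariate, a setting added after the data were seen, the log2 fold change of Lpl for catgut 2 against control was 0.43 (SE 0.327, adjusted p = 0.598 in edgeR) in place of 1.17. Against treadmill it was 0.52 (SE 0.273, adjusted p = 0.411 in edgeR) in place of 0.99. In catgut group 2 against control, Fabp3 had 0.18 (SE 0.490) in place of 1.02, Slc27a1 0.035 (SE 0.451) in place of 0.77, and Gpihbp1 0.52 (SE 0.410) in place of 0.76. For training alone, Lpl had -0.063 (SE 0.225) and Fabp3 -0.16 (SE 0.297), with the opposite sign to the values without the covariate. Fibre composition itself was not measured.

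Markers of other cell types were summed in the same libraries. The 10 endothelial markers with a row came to 86.8 to 177 FPKM in control (median 95.3) and 101 to 152 FPKM in catgut group 2 (median 128.4). All 10 had positive log2 fold changes there, with a median of 0.33. Of them, 5 had an unadjusted p under 0.05 (beside 16.4% of all genes, 8.04% higher) and 0 passed after adjustment in edgeR (beside 0.508%, 0.325% higher). Their mean level correlated with Gpihbp1, itself an endothelial gene (r = 0.54, rho = 0.51, adjusted permutation p = 0.0133 and 0.0228), and with Lpl (r = 0.50, rho = 0.48, adjusted permutation p = 0.0253 and 0.0305), and the part of vessels in these levels was not tested. The 8 adipocyte markers, of cells that also make Lpl, had a negative correlation with Lpl (r = -0.38, rho = -0.40, adjusted permutation p = 0.0905 and 0.0748), which was r = -0.23 without the 2 farthest libraries. They came to 7.29 to 105 FPKM in control (median 36.6) and 5.58 to 46.6 FPKM in catgut group 2 (median 16.1), and 1 of 7 tested, Thrsp, was lower there (log2 fold change -1.84, adjusted p = 0.0392 in edgeR). With the adipocyte level as a covariate, the log2 fold change of Lpl in catgut group 2 against control was 0.99 (adjusted p = 0.208 in edgeR). The 6 macrophage markers, of cells that express Lpl too, came to 21.8 to 66.9 FPKM in control and 16 to 49.0 FPKM in catgut group 2, and the 3 blood markers with a row to 81.4 to 144 and 86.6 to 498 FPKM.

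**Figure D5:**
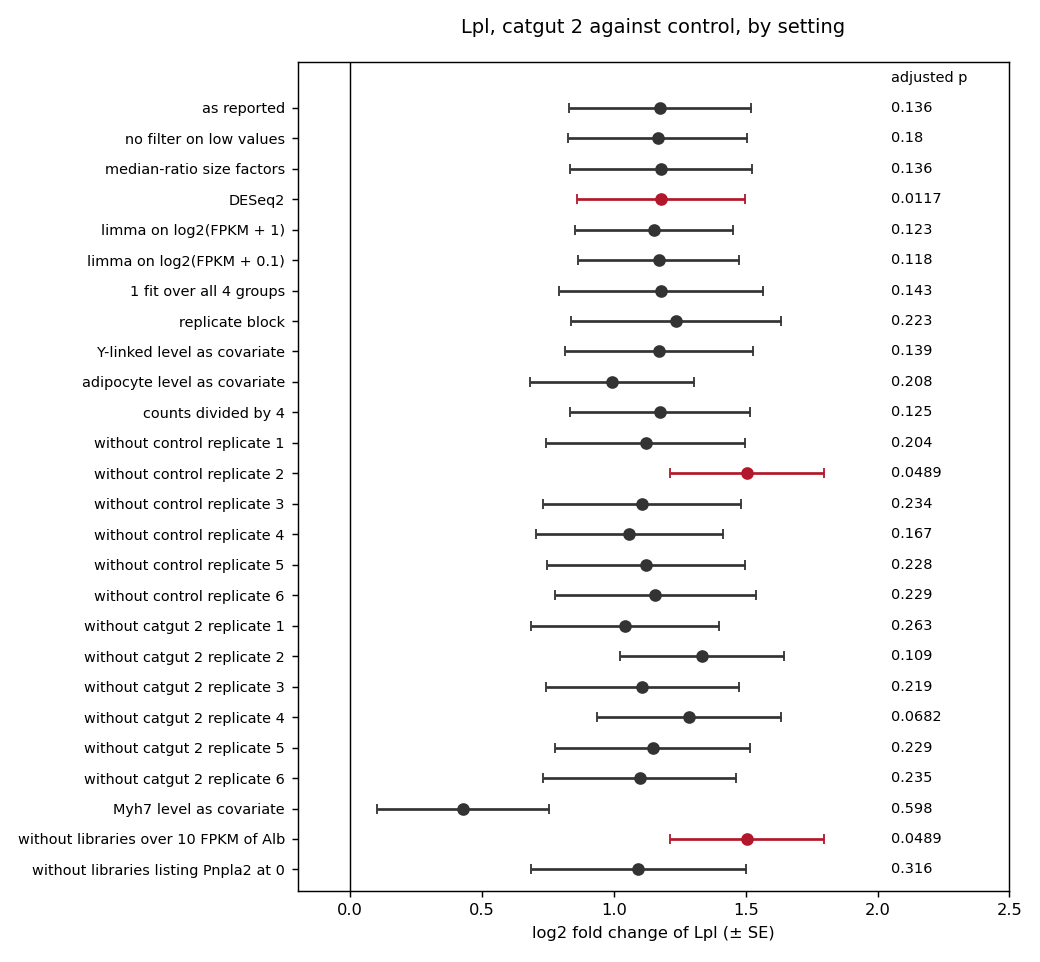
Log2 fold change ± SE of Lpl in catgut group 2 against control, as reported and under each other setting, with the adjusted p at the right and values under 0.05 in red. All values lie above 0, the lowest is 0.43 with Myh7 as a covariate, and 3 settings have an adjusted p under 0.05, of which 2 leave out the same library (control replicate 2).

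The other genes of the pathway came from 4 lists, with 64 genes tested. In edgeR, 1 of the 64 passed the adjusted threshold, in 1 of the 6 comparisons (catgut 2 against treadmill), where 0.237% of all genes did (0.129% lower). Lpin1, whose product makes the diacylglycerol for triglyceride synthesis, was lower in catgut group 2 (10.2 to 16.5 FPKM, median 12.3) than after training alone (18.6 to 28.5 FPKM, median 22.2). All 6 libraries thus lay below the treadmill range. The log2 fold change was -0.88 (SE 0.153, adjusted p = 0.0421 in edgeR, exact permutation p = 0.00216). The call was lost when any 1 of 9 of the 12 libraries was left out (treadmill replicates 1, 3, 4, 5 and 6, catgut 2 replicates 2, 3, 5 and 6), with adjusted p-values up to 0.11 and log2 fold changes from -0.97 to -0.83 over all 12. Against control Lpin1 had -0.69 (adjusted p = 0.132 in edgeR), and the catgut groups differed by -0.28 (adjusted p = 1 in edgeR).

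Of the partners and inhibitors of Lpl, 15 were tested and 0 passed in any comparison. Among all genes 0.00677% to 0.508% passed, depending on the comparison, so that 0 of 15 is near this background. Furin, a protease that cleaves the lipase, had means of 14.9 ± 1.03 FPKM (control), 14.5 ± 1.11 FPKM (treadmill), 12.9 ± 1.52 FPKM (catgut 1) and 11.8 ± 0.868 FPKM (catgut 2; SD, n = 6 each). All 6 libraries of catgut group 2 lay under the control range, and the log2 fold change was -0.34 (SE 0.0734, adjusted p = 0.0669 in edgeR). It was -0.33 against treadmill (adjusted p = 0.126 in edgeR) and -0.14 between the catgut groups (adjusted p = 1 in edgeR). Angptl4, which inactivates the lipase, ranged from 1.73 to 38.0 FPKM in control and from 2.90 to 8.17 FPKM in catgut group 2, and the difference was -1.30 on the log2 scale (SE 0.634, adjusted p = 0.332 in edgeR). Sdc4, a cell surface proteoglycan, had log2 fold changes against control of 0.63, 1.08 and 1.08 in the treadmill group and catgut groups 1 and 2 (adjusted p = 0.526, 0.348 and 0.113 in edgeR), and 0.45 in catgut group 1 against treadmill. Lipg, the endothelial lipase, with means under 1 FPKM, had 1.34 for training alone and 1.38 between the catgut groups, where Sdc1 had 0.49 (adjusted p = 0.489, 1 and 1 in edgeR). The apolipoproteins Apoc1, Apoc3 (an inhibitor of the lipase) and Apoa5 (an activator) were high in the libraries rich in albumin. Apoc1 had 35.1 FPKM in control replicate 2, 5.90 and 41.4 FPKM in treadmill replicates 2 and 3, and at most 1.14 FPKM elsewhere. Apoc3 had 16.4, 1.82 and 18.6 FPKM in these libraries and at most 0.798 FPKM elsewhere, and Apoa5 had 1.66, 0.259 and 2.82 FPKM and at most 0.0317 FPKM elsewhere.

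Of the lipoprotein receptors, 6 were tested and 0 passed, near the background of 0.00677% to 0.508% of all genes. For training alone, Scarb1, the receptor for high-density lipoprotein, had -0.71 on the log2 scale (SE 0.429, adjusted p = 0.632 in edgeR, exact permutation p = 0.361). Control replicate 4 had 29.3 FPKM, the other control libraries 3.28 to 13.1 FPKM and the treadmill libraries 3.86 to 11.9 FPKM. Of the genes of fatty acid uptake and binding, 22 were tested and 0 passed, again near that background. In catgut group 2 against control, 5 of these were higher and 2 lower at an unadjusted p under 0.05, beside 16.4% of all genes (8.04% higher). The log2 fold change of Flt1, a receptor for vascular growth factors, was 0.72 there (SE 0.194, adjusted p = 0.117 in edgeR). For training alone, Nrp1, a co-receptor of the same factors, had 0.47 and Acbd5, a binding protein of acyl-CoA, -0.50 (adjusted p = 0.484 and 0.515 in edgeR). Fabp1, the binding protein of liver, had 25.5 FPKM in control replicate 2, 2.35 and 35.1 FPKM in treadmill replicates 2 and 3, and at most 0.347 FPKM elsewhere. Slc27a2, a transport protein of liver and kidney, had 1.60 and 1.24 FPKM in control replicate 2 and treadmill replicate 3, 0.264 FPKM in treadmill replicate 2, and up to 0.771 FPKM (treadmill replicate 6) in the libraries without much albumin.

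Of the genes of triglyceride storage and lipolysis, 21 were tested. Dgat2, which makes triglycerides from diacylglycerol, had means of 13.5 ± 2.32 FPKM (control), 12.6 ± 6.68 FPKM (treadmill), 23.99 ± 10.3 FPKM (catgut 1) and 26.8 ± 7.99 FPKM (catgut 2; SD, n = 6 each). All 6 libraries of catgut group 2 (18.2 to 40.2 FPKM) exceeded the control range (10.6 to 17.1 FPKM). The log2 fold change was 1.02 (SE 0.210, exact permutation p = 0.00216), and the adjusted p of 0.0577 in edgeR just missed the threshold. Dgat2 had 1.05 in catgut group 2 and 0.87 in catgut group 1 against treadmill, and 0.84 in catgut group 1 against control (adjusted p = 0.304, 0.676 and 0.303 in edgeR). In catgut group 2 against treadmill, Lpin2, a relative of Lpin1, had 0.59 and Abhd5, the activator of the Pnpla2 lipase, 0.20 (adjusted p = 0.295 and 0.408 in edgeR). Plin4, a coat protein of lipid droplets, had 0.29 against treadmill and 0.42 against control in catgut group 1 (adjusted p = 0.855 and 0.455 in edgeR).

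The genes most like each of the 6 in pattern were found by Pearson's r of log2(FPKM + 1) over the 24 libraries, among 10469 genes with a mean of at least 1 FPKM. Those most like Lpl were Pank1 (r = 0.90), a kinase of coenzyme A synthesis, Eci1 (r = 0.89), an isomerase of fatty acid oxidation, Flt1 (r = 0.89), RGD1565355 (r = 0.88) and Tns1 (r = 0.88). Fabp3 was most like Etfb (r = 0.94), a carrier of electrons from fatty acid oxidation, and Agpat2 (r = 0.94), an enzyme of triglyceride synthesis. Gpihbp1 was most like Mrpl41 (r = 0.88) and Eya2 (r = 0.88), and Slc27a1 was most like Slc25a34 (r = 0.88) and the glycerol channel Aqp7 (r = 0.88). Vldlr was most like Prkca (r = 0.86) and Carnmt1 (r = 0.82). For Pnpla2 the values, 0.69 with Extl1 and 0.65 with Timm44, include its 4 libraries at 0.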

How the data were processed

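Quadriceps RNA of 24 rats was sequenced as poly(A) mRNA with paired ends. The labels give quadriceps muscle as the tissue, but their protocol text also speaks of an adipose type and names another sequencer than the series text, and this was not resolved. Per the deposited table, the authors gave a read count and an FPKM value (fragments per kilobase of transcript, scaled to library size) for each gene and library. The submitters' processing notes name HISAT2 2.0 and StringTie 1.3.0, and the genome build is not given in the sources used here. The commonest deposited count above 0 was 4, followed by 8, so the counts are not single reads, and a fit on counts divided by 4 was an alternative.

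Groups came from the sample labels. Genes with a mean of at least 0.1 FPKM over the 24 libraries (14772 of 21067) were tested in edgeR 4.0.16 (R 4.3.3) with TMM scaling and the quasi-likelihood test for each pair of groups, after checks on simulated data. A two-sided exact permutation test used log2(FPKM + 1). The call threshold was an adjusted p under 0.05. The members and gene lists were chosen with earlier results of these data known. Named genes were the members, list genes past the threshold, the list genes with the 3 smallest p-values in each direction of each comparison, the genes most like each member (5 for Lpl, 2 for the others), the marker lists, and Slc27a2, Fabp1 and Apoc3. Of the genes this rule names, 2 are not reported here.

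Alternatives were no filter, median-ratio size factors, DESeq2 1.42.0, limma 3.58.1 on log2(FPKM + 1) or log2(FPKM + 0.1), 1 fit over the 4 groups, a replicate block, the Y-linked or adipocyte level as a covariate, and leaving out each library. Added after the data were seen were the Myh7 level as a covariate and fits without libraries over 10 FPKM of Alb or listing Pnpla2 at 0. The Y-linked level was log2(summed FPKM + 1) of Ddx3, Eif2s3y and Kdm5d, and presence was a level over 1. Totals were 45945938 to 78278080 deposited counts per library, and since these are not single reads, the depth in reads is unknown and counting error was not measured apart from the spread between rats. No further columns or samples were left out, and no 2 libraries held identical values. The p-values measure the spread between these rats.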

Additional observations from a re-analysis of the deposited data

Results flagged for a closer look

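In 3 of the 24 groups of 6 libraries examined (6 genes in 4 groups), 1 library lay far from the other 5, with a gap to its nearest neighbour above Dixon's critical value for the group's range. For independent and normally distributed values, chance gives about 1 such group in 20. Here FPKM was used without a log, and Lpl and Fabp3 were flagged in the same library. The 3 groups therefore cannot be set against that rate. Lpl in control replicate 2 was 89.1 FPKM, and the next control library had 40.2 FPKM. Fabp3 in the same library was 991 FPKM, and the next had 444 FPKM. This library also had the most Myh7 (144 FPKM) and albumin (135 FPKM) of the control group, and the part of either in its Lpl and Fabp3 was not tested within the library. Treadmill replicate 3 likewise had the most albumin (226 FPKM), Myh7 (143 FPKM) and Lpl (88.1 FPKM) of its group. The mean level of liver markers and Lpl had r = 0.14 (rho = 0.0061) over the 24 libraries. Within groups r was 0.51, and without the 2 farthest libraries it was -0.25. Slc27a1 in catgut 1 replicate 2 was 21.4 FPKM, and the next library of that group had 8.38 FPKM.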

How the results depend on the processing

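Of 894 log2 fold changes of the 6 genes recomputed under the alternatives, 837 kept their direction and their side of the threshold, 54 changed sign and 3 passed the threshold, which were those of Lpl in catgut group 2 against control. Those that changed sign had not passed the threshold, and the cause was not tested. Without a filter on low values, the number of genes called was 4 (treadmill against control). With DESeq2, the number of genes called was 113 (treadmill against control), 140 (catgut 1 against treadmill), 300 (catgut 2 against treadmill), 8 (catgut 2 against catgut 1), 162 (catgut 1 against control), 679 (catgut 2 against control), and 1 of the 6 genes was called (catgut 2 against control), and the log2 fold change was 0.00070 for Vldlr (catgut 1 against control), 1.18 for Lpl (catgut 2 against control) with an adjusted p of 0.0117. With 1 fit over all 4 groups, the number of genes called was 15 (treadmill against control), 4 (catgut 1 against treadmill), 54 (catgut 2 against treadmill), 0 (catgut 2 against catgut 1), 20 (catgut 1 against control), and the log2 fold change was 3.3e-06 for Vldlr (catgut 1 against control). With the Y-linked level as a covariate, the number of genes called was 5 (treadmill against control), 18 (catgut 1 against treadmill), 132 (catgut 2 against control), and the log2 fold change was 0.023 for Vldlr (catgut 2 against treadmill), 0.020 for Pnpla2 (catgut 2 against catgut 1), 0.0019 for Vldlr (catgut 1 against control). With the adipocyte level as a covariate, the number of genes called was 4 (treadmill against control), 4 (catgut 1 against treadmill), 75 (catgut 2 against treadmill), 0 (catgut 1 against control), 15 (catgut 2 against control), and the log2 fold change was -0.067 for Gpihbp1 (treadmill against control), 0.0076 for Vldlr (catgut 2 against treadmill). With the Myh7 level as a covariate, the number of genes called was 21 (catgut 2 against treadmill), 152 (catgut 2 against control), and the log2 fold change was -0.063 for Lpl (treadmill against control), -0.16 for Gpihbp1 (treadmill against control), -0.16 for Fabp3 (treadmill against control), -0.20 for Pnpla2 (treadmill against control), -0.15 for Fabp3 (catgut 1 against treadmill), -0.013 for Slc27a1 (catgut 1 against treadmill), -0.052 for Fabp3 (catgut 2 against treadmill), -0.17 for Slc27a1 (catgut 2 against treadmill), 0.0064 for Vldlr (catgut 2 against treadmill), -0.53 for Pnpla2 (catgut 2 against treadmill), -0.061 for Gpihbp1 (catgut 2 against catgut 1), -0.022 for Slc27a1 (catgut 2 against catgut 1), -0.23 for Fabp3 (catgut 1 against control), 0.045 for Vldlr (catgut 1 against control), 0.058 for Vldlr (catgut 2 against control). Without libraries over 10 FPKM of Alb, the number of genes called was 2 (catgut 1 against treadmill), 14 (catgut 2 against treadmill), 9 (catgut 1 against control), and 1 of the 6 genes was called (catgut 2 against control), and the log2 fold change was -0.025 for Gpihbp1 (treadmill against control), 1.51 for Lpl (catgut 2 against control) with an adjusted p of 0.0489. Without libraries listing Pnpla2 at 0, the number of genes called was 0 (treadmill against control), 2 (catgut 1 against treadmill), 4 (catgut 2 against treadmill), 0 (catgut 2 against catgut 1), 6 (catgut 2 against control), and the log2 fold change was -0.086 for Gpihbp1 (catgut 2 against catgut 1). With limma on log2(FPKM + 1), the number of genes called was 3 (catgut 1 against treadmill), 21 (catgut 2 against treadmill), 2 (catgut 2 against catgut 1), 8 (catgut 1 against control), and the log2 fold change was -0.054 for Gpihbp1 (treadmill against control), 0.026 for Vldlr (catgut 2 against treadmill). With limma on log2(FPKM + 0.1), the number of genes called was 4 (catgut 1 against treadmill), 2 (catgut 2 against catgut 1), and the log2 fold change was -0.061 for Gpihbp1 (treadmill against control), 0.027 for Vldlr (catgut 2 against treadmill). With a replicate block, the number of genes called was 2 (catgut 1 against treadmill), 3 (catgut 2 against treadmill), 0 (catgut 2 against catgut 1), 1 (catgut 1 against control), 0 (catgut 2 against control), and the log2 fold change was -0.025 for Gpihbp1 (treadmill against control). With counts divided by 4, the number of genes called was 0 (catgut 2 against catgut 1). With median-ratio size factors, the log2 fold change was 0.00071 for Vldlr (catgut 1 against control). When each library was left out in turn, the number of genes called ranged from 0 to 12 (treadmill against control), from 2 to 6 (catgut 1 against treadmill), from 6 to 30 (catgut 2 against treadmill), from 0 to 2 (catgut 2 against catgut 1), from 0 to 12 (catgut 1 against control), from 12 to 492 (catgut 2 against control), and the number of the 6 genes called from 0 to 1 (catgut 2 against control). In these fits the log2 fold change ranged from -0.062 to 0.52 for Lpl (treadmill against control), from -0.21 to 0.27 for Gpihbp1 (treadmill against control), from -0.12 to 0.39 for Fabp3 (catgut 1 against treadmill), from -0.33 to 0.49 for Slc27a1 (catgut 1 against treadmill), from -0.047 to 0.041 for Vldlr (catgut 2 against treadmill), from -0.30 to 0.52 for Pnpla2 (catgut 2 against treadmill), from -0.084 to 0.27 for Gpihbp1 (catgut 2 against catgut 1), from -0.066 to 0.71 for Slc27a1 (catgut 2 against catgut 1), from -0.60 to 0.15 for Pnpla2 (catgut 2 against catgut 1), from -0.057 to 0.074 for Vldlr (catgut 1 against control), from 1.04 to 1.51 for Lpl (catgut 2 against control). Same-numbered replicates did not deviate together (correlations of their deviations from -0.45 to 0.27 over the pairs), so the replicate block is given only here, with Lpl in catgut group 2 against control at 1.24 (adjusted p = 0.223 in edgeR). Leaving out the libraries rich in albumin gave no separate value for catgut 2 against catgut 1, which hold none. The call of Lpin1 in catgut group 2 against treadmill was lost with a replicate block (adjusted p = 0.0907), the Myh7 covariate (adjusted p = 0.0507), libraries rich in albumin left out (adjusted p = 0.0507), libraries at 0 for Pnpla2 left out (adjusted p = 0.0736) in edgeR.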
